A study of Mus musculus with 9 samples.

Results

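The genes described here are 40 genes of connective tissue: collagens, other matrix proteins, the enzymes that cut or cross-link them, PDGF receptors, and cytoskeletal genes of fibroblasts, stellate cells and pericytes. They were listed by gene symbol, with no threshold on their values, at a time when earlier results of these data were known. All 40 were found among the 56941 genes of the count table, and all 40 passed the filter on low counts, which left 18548 genes to test. The libraries were made from RNA of whole isolated pancreatic islets of male C57BL/6J mice, 15 weeks old at the start and fed for 9 months. The low fat diet (LFD, 3 libraries) held 10% fat, the high fat diet (HFD, 2 libraries) held 60% fat and the ketogenic diet (KD, 4 libraries) held 89.9% fat. No group carried a transgene, a deletion or a drug in the labels, and the comparison asked how the ketogenic diet alters transcripts of islets. The labels used here do not say whether a library came from 1 mouse or from several, so the p-values measure the spread between these libraries.

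Fibroblasts and stellate cells lay down the matrix around and between islet cells, and pericytes sit on the islet capillaries. Fibrillar collagens form the cables of connective tissue, whereas type IV collagen forms the sheet-like basement membrane beneath the islet endothelium. Stellate cells of the pancreas take on contractile genes such as Acta2 when activated and then make more collagen, which is how they are known in pancreatic fibrosis. In bulk RNA, fewer cells of a type and less RNA per cell cannot be told apart, and every value below carries that limit.

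Library totals ran from 15513502 to 26588390 counts. Values are CPM, counts scaled to a common library size, on library sizes scaled by the trimmed mean of M values (TMM). The exocrine share differed between libraries. It overlapped between LFD and each of the other diets, but every KD library lay above both HFD libraries. A list of 25 acinar genes held 15.0% to 35.2% of counts in LFD, and 11.2% and 18.8% in HFD. In KD these genes held 20.2% to 59.8%, with KD 4 the lowest. Insulin genes held 4.77% to 8.02% in LFD, 9.54% and 10.6% in HFD, and 1.44% to 11.1% in KD. The 12 lymphocyte markers, none of them at 0 counts in all libraries of a diet, summed to 29.0 to 151 CPM in LFD, 3.75 and 5.62 CPM in HFD, and 1.43 to 2.88 CPM in KD. Lymphocyte transcripts were highest in the same LFD libraries that serve as the control for both fat-rich diets.

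As a set, the connective tissue genes took a smaller share of the KD libraries. They held 0.294%, 0.288% and 0.184% of the counts of LFD 1, 2 and 3. They held 0.240% and 0.278% in HFD 1 and 2, and 0.0918%, 0.131%, 0.0535% and 0.154% in KD 1 to 4. The 95% Wilson interval of the smallest share, that of KD 3, ran from 0.0524% to 0.0546% and covers counting error only. All 4 KD shares lay below all 3 LFD shares and both HFD shares. On the TMM scale the gap was narrower. The summed level was 2796, 2323 and 1470 CPM in LFD, 1959 and 1854 CPM in HFD, and 1697, 1549, 865 and 1316 CPM in KD. There the KD range reached above LFD 3, while both HFD libraries stayed above every KD library.

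**Figure D1:**
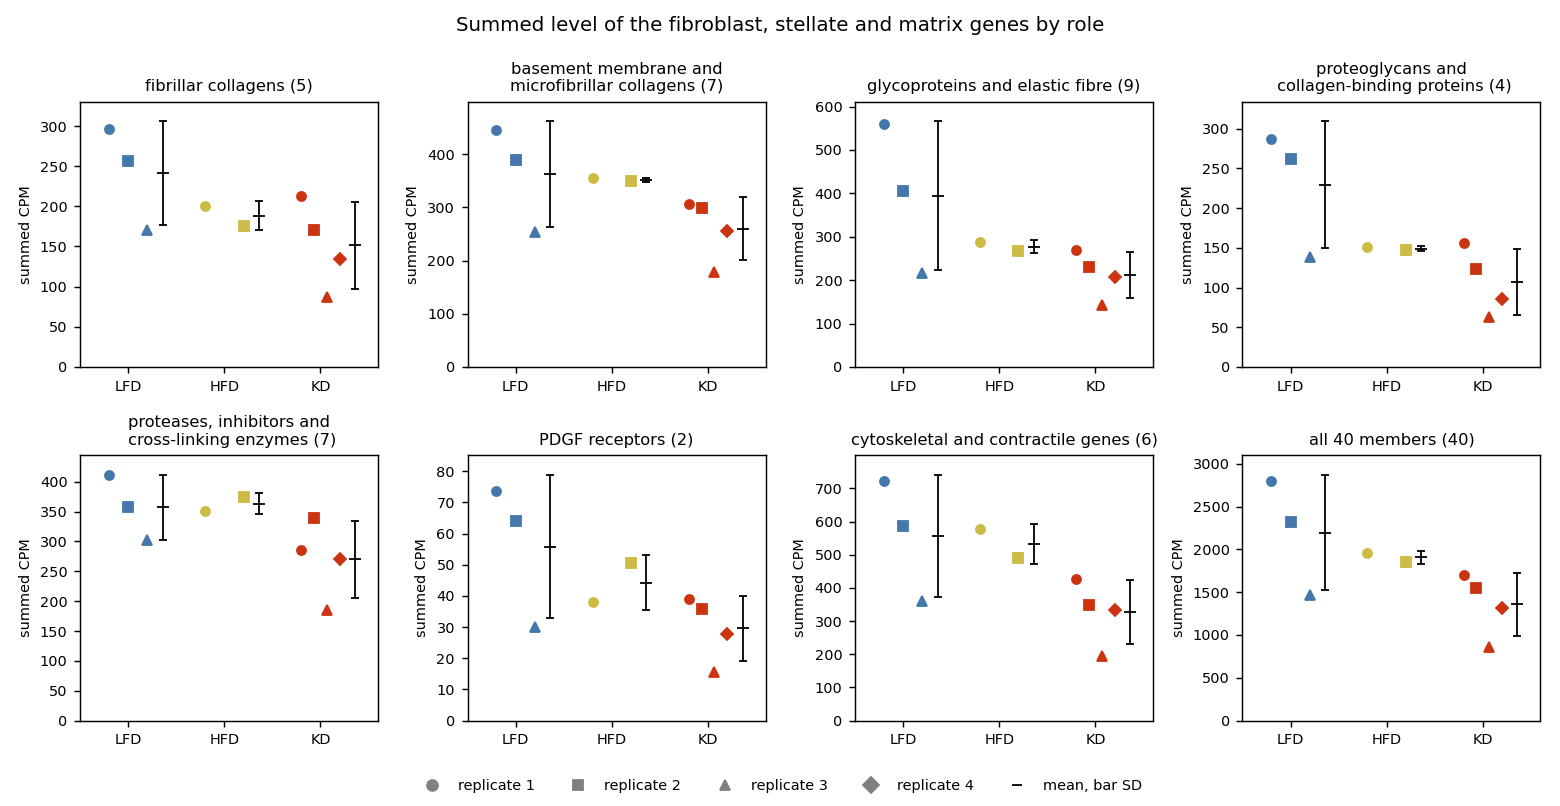
Summed CPM on TMM-scaled library sizes (y axis, from 0) of the genes of each role in every library, with 1 point per library, grouped by diet on the x axis, and bars for the mean ± SD of a diet. LFD 3 sits at the bottom of the LFD points, and the sum over all 40 genes runs from 1470 to 2796 CPM in LFD and from 865 to 1697 CPM in KD.

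Per kilobase of exon, which allows levels of different genes to be compared, Gsn led with a mean of 62.8 ± 17.99 CPM per kb in LFD (SD, n = 3). Gsn encodes gelsolin, which severs actin filaments. Next in LFD came Rgs5 at 39.96 ± 8.65, Timp3 at 32.7 ± 4.11, Sparc at 24.6 ± 6.91 and Thbs1 at 24.5 ± 13.6 CPM per kb. Sparc and Thbs1 did not differ beyond their spread. The lowest were Mfap5 at 0.287 ± 0.184, Lox at 0.397 ± 0.110 and Timp1 at 0.548 ± 0.225 CPM per kb. Timp1 rested on 59 counts over all 9 libraries and Mfap5 on 219, against 44561 for Timp3.

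Promoter sequences are shown for 4 of the genes: a pair of fibrillar collagens that are made together, the PDGF receptor with the lowest fold change in KD, and Rgs5, a pericyte gene with its highest level in an HFD library. Each is the 250 bases before the annotated start, from RefSeq on GRCm38.p6 and on the plus strand, an older build than the one used for the counts. Capitals mark matches on either strand to the TATA box letters TATAAA, to the CCAAT box letters CCAAT or to the GC box core GGGCGG, none of which overlap here.
Col1a2, chr6:4505368-4505617: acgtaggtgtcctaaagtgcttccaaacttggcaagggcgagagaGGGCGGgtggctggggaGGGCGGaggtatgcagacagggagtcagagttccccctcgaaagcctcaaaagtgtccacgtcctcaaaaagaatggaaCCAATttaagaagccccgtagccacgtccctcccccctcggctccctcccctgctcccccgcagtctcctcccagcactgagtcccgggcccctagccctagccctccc
Col3a1, chr1:45311288-45311537: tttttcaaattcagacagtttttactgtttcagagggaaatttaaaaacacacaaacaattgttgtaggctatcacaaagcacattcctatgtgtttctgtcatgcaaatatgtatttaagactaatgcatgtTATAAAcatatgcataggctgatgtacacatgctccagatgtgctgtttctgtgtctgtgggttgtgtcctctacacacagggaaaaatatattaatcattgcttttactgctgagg
Pdgfra, chr5:75152001-75152250: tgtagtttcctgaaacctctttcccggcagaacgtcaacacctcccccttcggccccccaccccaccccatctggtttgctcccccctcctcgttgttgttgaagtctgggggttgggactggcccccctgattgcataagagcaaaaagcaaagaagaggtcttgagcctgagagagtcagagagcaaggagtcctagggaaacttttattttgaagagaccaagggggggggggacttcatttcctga
Rgs5, chr1:169655251-169655500: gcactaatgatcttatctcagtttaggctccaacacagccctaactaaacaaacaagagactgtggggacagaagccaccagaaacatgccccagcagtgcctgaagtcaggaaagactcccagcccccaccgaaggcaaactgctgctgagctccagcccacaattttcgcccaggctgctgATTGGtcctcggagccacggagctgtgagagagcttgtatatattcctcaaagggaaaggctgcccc
Of the 40 genes, 25 had at least 1 such window in the table, 29 windows in all. TATAAA stood in 13.8% of those windows against 12.37% of all 32851 windows, and CCAAT in 37.9% against 33.85%. GGGCGG stood in 48.3% against 32.74%. The CArG box, which serum response factor binds in contractile genes, matched 0 of the 29 windows and 1.47% of all windows. The Pdgfra window held none of these letters.

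Between KD and LFD, 1 of the 40 genes passed the test. That was Thbs1, which fell in KD (edgeR quasi-likelihood test, adjusted over all 18548 genes, threshold 0.05). Of all genes tested, 4.12% passed, 3.14% as lower and 0.981% as higher, so the count is near the background. The direction was shared widely: 39 of the 40 genes had a log2 fold change below 0, against 51.9% of all genes, with Eln as the exception. The median log2 fold change was -0.76, against -0.02 over all genes. At an unadjusted p below 0.05, 23 of the 40 were lower and 0 higher, against 11.9% and 10.8% of all genes. For 2 genes, Thbs1 and Timp1, every KD library was below every LFD library, where 10.1% of all genes were lower in that way, and for 0 every KD library was above, where 9.69% of all genes were.

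**Figure D2:**
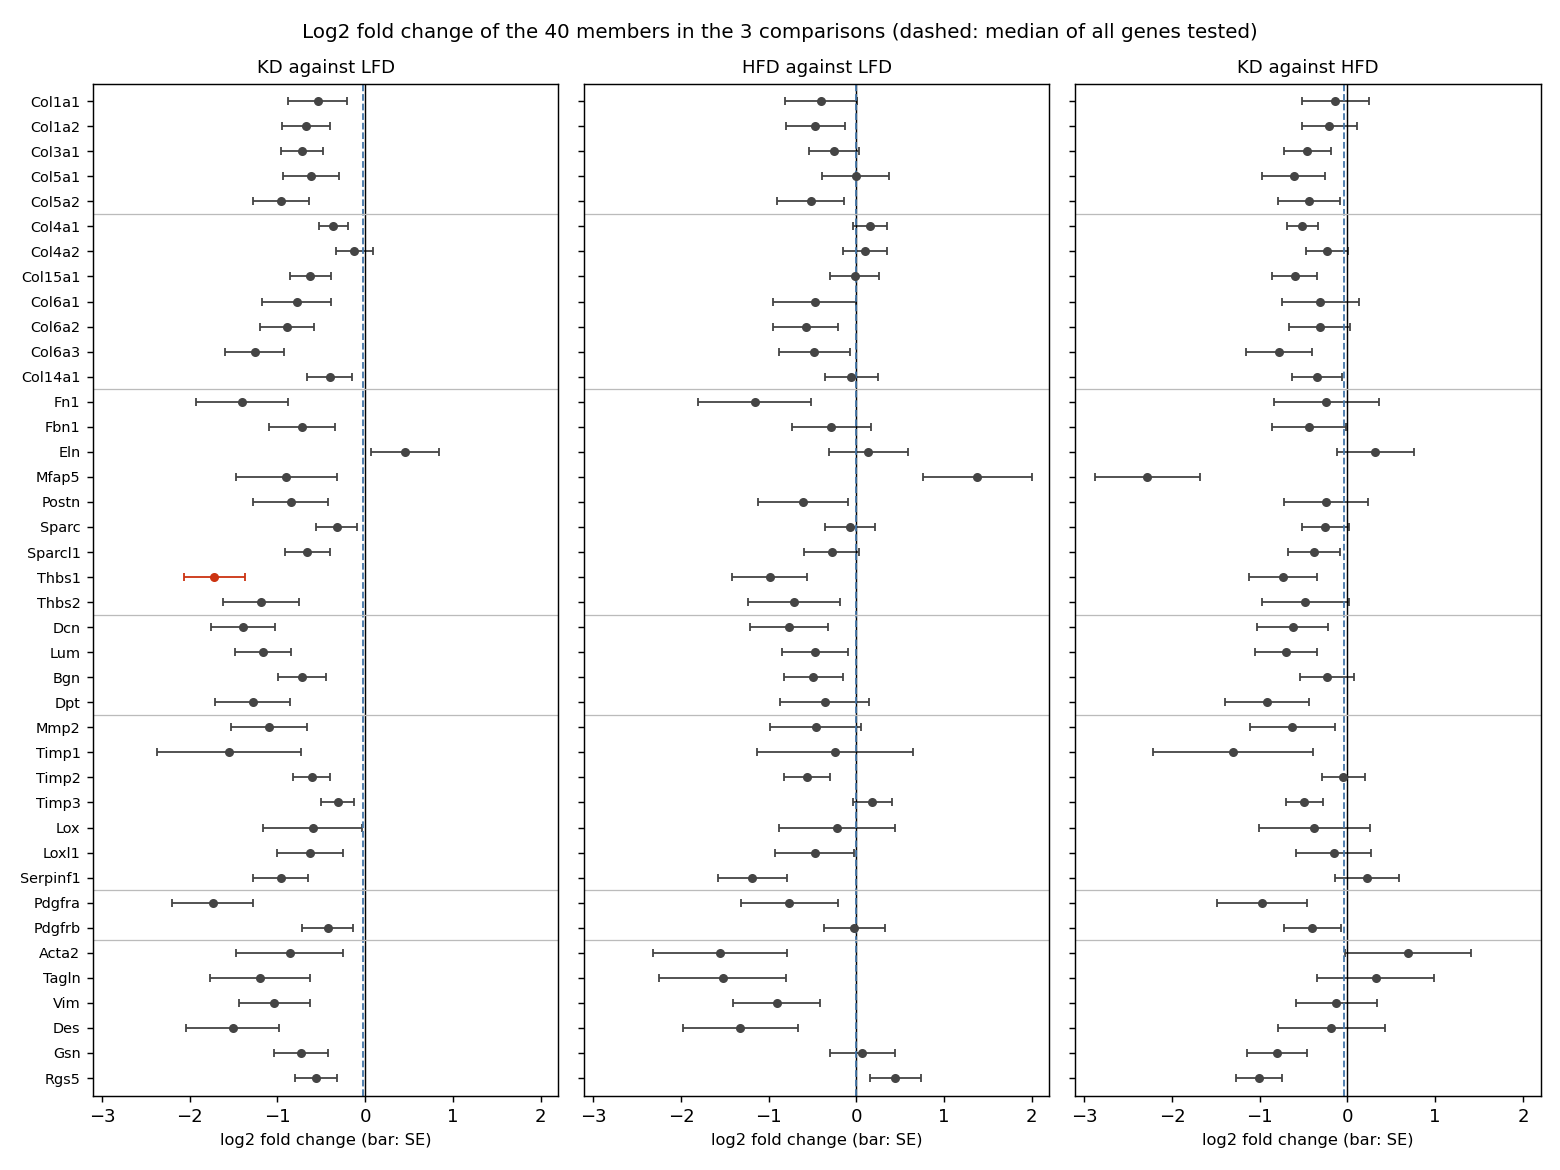
Log2 fold changes (x axis) of the 40 genes, ordered by role on the y axis, for the 3 comparisons of diets, with bars for the standard error a solid line at 0 and a dashed line at the median of all genes tested. The red point passed the test. In KD against LFD 39 of the points lie left of 0, and in HFD against LFD they spread from -1.55 for Acta2 to 1.38 for Mfap5.

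The number of calls depended on which libraries were used. LFD 3 was the lowest LFD library for 38 of the 40 genes, where 40.5% of all genes had their lowest LFD value there. LFD 1 was the highest for 36, where 28.6% of all genes had their highest LFD value there. Without LFD 3, 13 genes passed, against 5.08% of all genes, and the median was -1.03. Without LFD 1 the count was 0, against 0.97% of all genes, and the median was -0.51. Within KD, KD 3 was the lowest library for 34 genes, where 25.4% of all genes had their lowest KD value there. Both other tools made more calls on the full set, 10 with DESeq2, which called 9.56% of all genes, and 14 with limma-voom, which called 10.1%. On library totals without TMM scaling, an alternative added after seeing the data, 25 passed, against 8.91% of all genes, and that scaling moved the median of all genes to -0.59. The count stayed at 1 with DESeq2 size factors (3.91% of all genes), with TMM computed without acinar and hormone genes (3.9%), with no filter (3.42%), where the gene was Lum and not Thbs1, and with only the groups compared (3.12%).

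Thbs1 encodes thrombospondin 1, a matricellular protein that releases TGF-beta from its latent form and restrains angiogenesis. Its level was 228, 155 and 63.4 CPM in LFD, 70.2 and 79.9 CPM in HFD, and 34.7, 55.1, 39.6 and 50.6 CPM in KD. Every KD library lay below every LFD and HFD library, and LFD 1 stood far above the rest. Against LFD it fell by 1.72 on the log2 scale in KD (SE 0.35), 3.3-fold lower, with an edgeR adjusted p of 0.0283. The call held without LFD 3 (0.000332) and without KD 4 (0.0385), as edgeR adjusted p. It was lost without any single one of LFD 1 (0.0938), LFD 2 (0.0849), HFD 1 (0.0520), HFD 2 (0.0516), KD 1 (0.0762), KD 2 (0.0652) or KD 3 (0.0862), by edgeR adjusted p. With a lymphocyte score as a covariate the edgeR fold change was 0.67 with an adjusted p of 0.806. The relative Thbs2, which also binds matrix and cell surface receptors, was at 12.3, 4.44 and 2.77 CPM in LFD and between 2.32 and 3.27 CPM in KD, where it overlapped LFD 3.

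**Figure D3:**
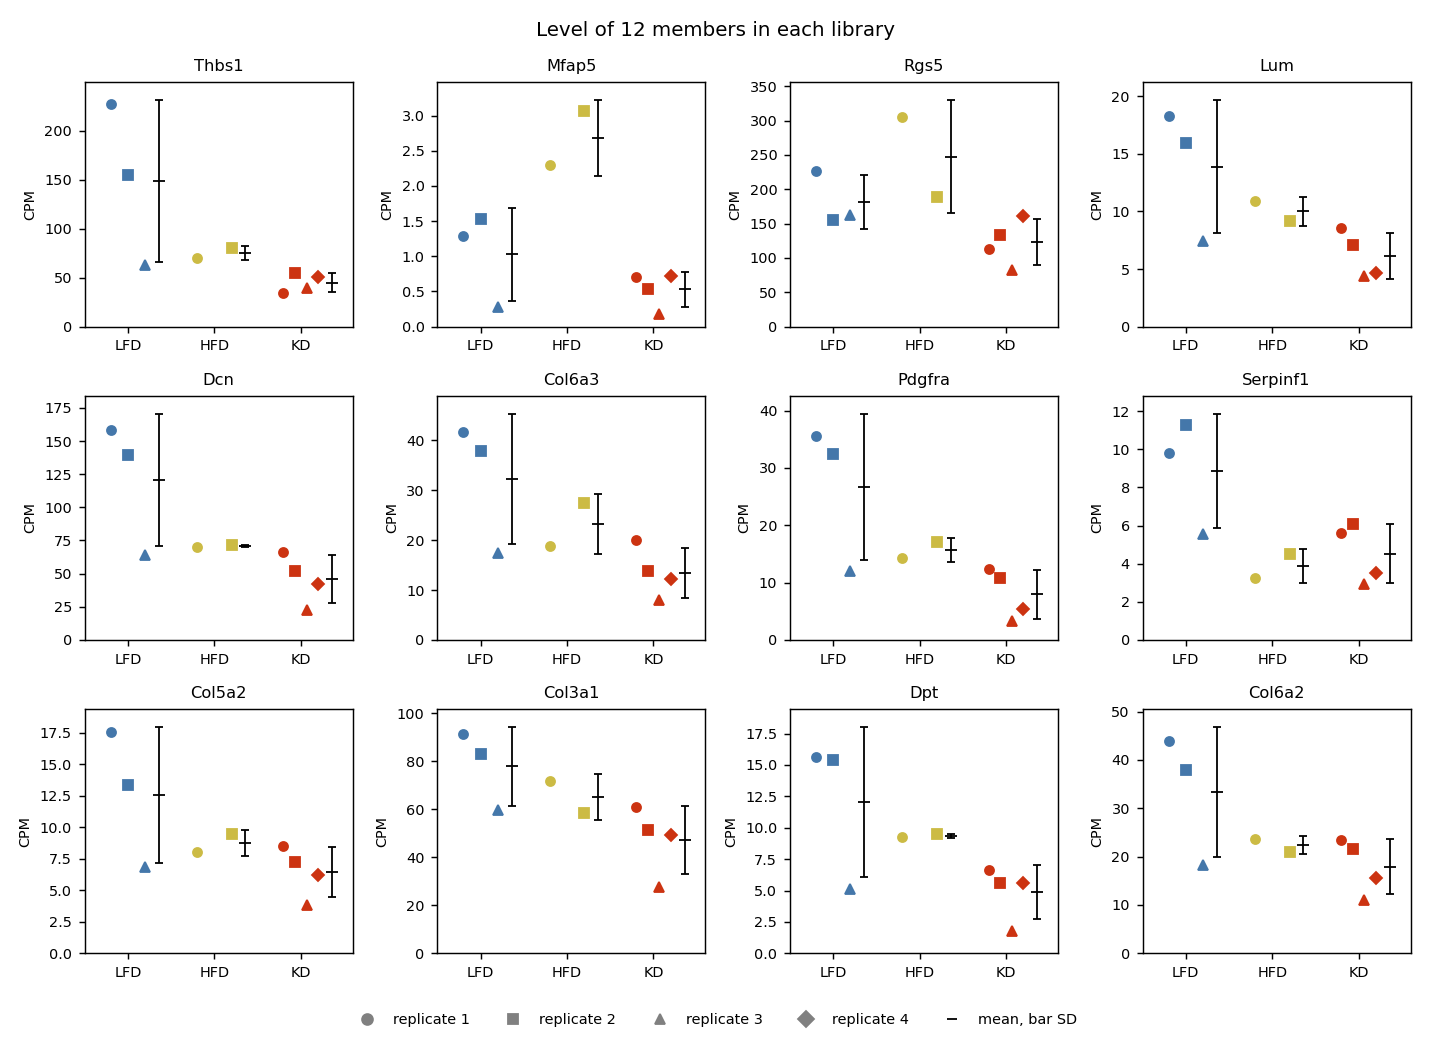
CPM on TMM-scaled library sizes (y axes, each from 0) of the 12 genes described library by library, with 1 point per library, and bars for the mean ± SD of each diet. Thbs1 in KD lies between 34.7 and 55.1 CPM, below all LFD and HFD libraries, and Mfap5 is highest in HFD at 2.30 and 3.06 CPM.

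The fibrillar collagens were all lower on average in KD than in LFD, and none of the 5 passed the test. Their log2 fold changes ran from -0.96 for Col5a2 to -0.54 for Col1a1, with a median of -0.67. Col3a1, the type III collagen chain of soft connective tissue, was at 91.1, 82.8 and 59.5 CPM in LFD, 71.8 and 58.3 in HFD, and 61.0, 51.2, 27.5 and 49.3 in KD. Only KD 1 reached into the LFD range. Its log2 fold change was -0.72 (SE 0.24 and adjusted p = 0.111 by edgeR). Col5a2, a chain of the type V collagen that starts fibrils, was at 17.5, 13.4 and 6.85 CPM in LFD, 8.05 and 9.47 in HFD, and 8.48, 7.22, 3.83 and 6.23 in KD. LFD 3 lay inside the KD range, and the log2 fold change was -0.96 (SE 0.32 and adjusted p = 0.11 by edgeR). Col1a1 and Col1a2, the chains of type I collagen, had log2 fold changes of -0.54 (SE 0.34) and -0.67 (SE 0.28). Col5a1, the partner chain of Col5a2, was at 7.65 to 19.6 CPM in LFD and 5.08 to 12.1 CPM in KD.

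Among the other collagens, none of 7 passed, and the type VI chains were the lowest in KD. Type VI collagen forms beaded filaments that link cells to the fibres around them. Col6a3 was at 41.6, 38.0 and 17.5 CPM in LFD, 18.9 and 27.5 in HFD, and 20, 13.8, 7.93 and 12.2 in KD, with only KD 1 above LFD 3. Its log2 fold change was -1.26 (SE 0.34 and adjusted p = 0.0644 by edgeR). Col6a2 was at 44.0, 38.0 and 18.3 CPM in LFD, 23.7 and 21.03 in HFD, and 23.5, 21.6, 11.04 and 15.6 in KD. KD 1 and KD 2 lay above LFD 3, and the log2 fold change was -0.89 (SE 0.31 and adjusted p = 0.121 by edgeR). Col6a1 was at 14.8 to 42.9 CPM in LFD and 8.19 to 24.2 CPM in KD. The basement membrane chains showed smaller differences, with a log2 fold change of -0.36 (SE 0.16) for Col4a1 and -0.13 (SE 0.21) for Col4a2. Col15a1, a basement membrane zone collagen, was at 28.8 to 53.1 CPM in LFD and 19.4 to 34.8 CPM in KD. Col14a1, which coats fibrils, was at 16.7 to 26.3 CPM in LFD and 9.89 to 22.8 CPM in KD.

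The small proteoglycans and collagen-binding proteins had the lowest median of the 7 roles, -1.23, and none of the 4 passed. Dcn encodes decorin, which binds collagen fibrils and TGF-beta. It was at 158, 139.8 and 63.8 CPM in LFD, 70.3 and 71.5 in HFD, and 66.6, 52.2, 22.8 and 42.1 in KD. KD 1 just passed LFD 3, and the log2 fold change was -1.39 (SE 0.36 and adjusted p = 0.0634 by edgeR). Lum, lumican, which spaces collagen fibrils, was at 18.3, 15.95 and 7.41 CPM in LFD, 10.9 and 9.14 in HFD, and 8.56, 7.08, 4.36 and 4.66 in KD. Again KD 1 alone exceeded LFD 3, and the log2 fold change was -1.17 (SE 0.32 and adjusted p = 0.0631 by edgeR). Dpt, dermatopontin, which binds decorin, was at 15.6, 15.4 and 5.16 CPM in LFD, 9.26 and 9.47 in HFD, and 6.61, 5.57, 1.78 and 5.60 in KD. Here 3 of the 4 KD libraries lay above LFD 3, and the log2 fold change was -1.28 (SE 0.43 and adjusted p = 0.116 by edgeR). Bgn, biglycan, a close relative of decorin, had a log2 fold change of -0.72 (SE 0.27).

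Among 9 glycoproteins and elastic fibre genes, 8 log2 fold changes between KD and LFD were below 0, with a median of -0.85. Only that of Eln was above 0. Fn1, fibronectin, was at 52.6, 37.0 and 13.5 CPM in LFD and 24.3, 11.2, 5.43 and 11.1 in KD, and its log2 fold change was -1.40 (SE 0.52 and adjusted p = 0.16 by edgeR). Eln, elastin, was at 15.8, 11.5 and 6.85 CPM in LFD, 13.5 and 11.4 in HFD, and 28.2, 13.7, 9.53 and 10.8 in KD. Its log2 fold change was 0.46 (SE 0.38) with KD 1 far above the rest. Without KD 1 it was 0.0085, and it was -0.21 on library totals without TMM scaling and -0.053 with an acinar score as a covariate. Sparc, a collagen-binding matricellular protein, had a log2 fold change of -0.32 (SE 0.24). Its homologue Sparcl1 was at 47.2 to 93.4 CPM in LFD and 30.2 to 57.8 CPM in KD. Fbn1, the main microfibril protein, was at 12.2 to 21.8 CPM in LFD and 3.38 to 14.9 CPM in KD. Postn, periostin, was at 6.43 to 19.9 CPM in LFD and 4.19 to 9.88 CPM in KD. In none of these did the diets separate.

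The proteases, inhibitors and cross-linking enzymes gave 0 calls among 7, with a median of -0.63. Serpinf1 encodes pigment epithelium-derived factor, a secreted serpin that restrains angiogenesis. It was at 9.81, 11.3 and 5.53 CPM in LFD, 3.25 and 4.53 in HFD, and 5.60, 6.06, 2.94 and 3.50 in KD, a log2 fold change of -0.96 against LFD in KD (SE 0.32 and adjusted p = 0.106 by edgeR). Both HFD libraries lay below all LFD libraries, and KD 1 and KD 2 lay just above LFD 3. Timp3, an inhibitor of metalloproteases that stays bound to matrix, had a log2 fold change of -0.31 (SE 0.19). Mmp2, the protease gelatinase A, was at 6.29 to 15.0 CPM in LFD and 1.87 to 9.10 CPM in KD. The inhibitor Timp2 was at 48.0 to 74.1 CPM in LFD and 26.5 to 52.4 CPM in KD. The cross-linking enzymes Lox and Loxl1 were at 1.41 to 2.45 and 4.22 to 6.44 CPM in LFD, and at 0.178 to 2.26 and 1.603 to 4.46 CPM in KD. Timp1, an inhibitor induced in injured tissue, had 6, 16 and 8 counts in LFD and 4, 0, 1 and 6 counts in KD, too few for a precise fold.

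The PDGF receptors differed in how low they were. PDGF receptor alpha marks fibroblasts, and PDGF receptor beta marks pericytes and stellate cells. Pdgfra was at 35.6, 32.4 and 12.01 CPM in LFD, 14.2 and 17.1 in HFD, and 12.3, 10.8, 3.30 and 5.33 in KD. KD 1 was level with LFD 3, and the other KD libraries lay below it. The log2 fold change was -1.74 (SE 0.46 and adjusted p = 0.0674 by edgeR), the lowest of the 40. For Pdgfrb it was -0.43 (SE 0.29 and adjusted p = 0.413 by edgeR), with 38.0, 31.6 and 17.9 CPM in LFD, 23.9 and 33.3 in HFD, and 26.8, 25.0, 12.4 and 22.3 in KD.

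None of the 6 cytoskeletal and contractile genes passed between KD and LFD. Acta2, smooth muscle actin and the usual sign of an activated stellate cell, was at 73.1, 35.0 and 12.5 CPM in LFD, 13.1 and 14.3 in HFD, and 42.8, 21.5, 12.7 and 11.4 in KD. The spread within LFD was wider than the distance between diets, and the log2 fold change was -0.86 (SE 0.60). Tagln (transgelin) and Des (desmin), other contractile-cell genes, followed the same order within LFD, with log2 fold changes of -1.20 (SE 0.57) and -1.51 (SE 0.53). Des in LFD 1 was at 38.1 CPM against 12.8 and 5.91 CPM in LFD 2 and 3. Without LFD 1 the log2 fold changes were -0.13 for Acta2, -0.73 for Tagln and -0.51 for Des, and without LFD 3 Des passed (-1.94, edgeR adjusted p = 0.0247). Vim, vimentin, the intermediate filament of mesenchymal and also immune cells, had a log2 fold change of -1.04 (SE 0.40). Gsn was at 234, 228 and 133 CPM in LFD, 187 and 229 in HFD, and 172, 130.3, 60.4 and 113 in KD, a log2 fold change of -0.74 (SE 0.31). Rgs5, a regulator of G protein signalling in pericytes, was at 227, 156 and 163 CPM in LFD, 305 and 189 in HFD, and 114, 134, 82.6 and 162 in KD. KD 4 lay within the LFD range, and the log2 fold change against LFD was -0.56 (SE 0.24 and adjusted p = 0.197 by edgeR).

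In the same comparison, 11 of the 12 lymphocyte markers passed as lower, as did 4 of the 12 duct markers (Krt19, Cftr, Spp1, Mmp7). So did 1 of the 12 macrophage markers (Lyz2), and 3.14% of all genes. Among the duct markers 8 log2 fold changes were below 0 and 4 above 0. Of the 25 acinar genes, 24 had a log2 fold change above 0, with a median of 1.52. At an unadjusted edgeR p below 0.05, 16 of them were higher and 1 lower, against 10.8% and 11.9% of all genes. After adjustment 1 acinar gene passed as lower, Amy2b, and 0 as higher. Summed duct markers were at 738 to 1241 CPM in LFD and 587 to 1803 CPM in KD, and summed macrophage markers at 101 to 164 and 63.2 to 125 CPM. With the lymphocyte score as a covariate, 3 of the 40 genes had a fold change below 0 and the median was 0.96. Lymphocyte markers separate LFD from KD completely, so their part in these results cannot be told apart from diet in this design. With the acinar score as a covariate the median was -0.97 and 3 genes passed, Sparcl1, Lum and Bgn, where 7.89% of all genes did, and Thbs1 did not (edgeR adjusted p = 0.0743). The part of duct and macrophage transcripts was not tested.

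Between HFD and LFD, 0 of the 40 genes passed by edgeR, by DESeq2 or by limma-voom. By edgeR 0% of all genes passed, by DESeq2 1.44% and by limma-voom 0.0593%, and at an unadjusted p below 0.05 there were 2 lower genes, Thbs1 and Serpinf1, and 1 higher, Mfap5, against 6.44% and 3.55% of all genes. The fold change was below 0 for 33 of the 40 genes, against 50.2% of all genes, and the median was -0.47. Libraries did not overlap for 3 lower genes, Bgn, Timp2 and Serpinf1, and 1 higher, Mfap5, against 14.1% and 13.4% of all genes. This comparison has the LFD libraries in common with that of KD and LFD, so like directions in both are not independent.

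Mfap5, a microfibril-associated glycoprotein of elastic fibres, was the gene with the largest positive value in HFD. It was at 1.29, 1.52 and 0.281 CPM in LFD, 2.30 and 3.06 in HFD, and 0.7002, 0.535, 0.178 and 0.717 in KD. Those levels are 21, 34 and 6 counts in LFD, 46 and 73 in HFD, and 9, 12, 2 and 16 in KD. Both HFD libraries were above every other library. The log2 fold change of HFD against LFD was 1.38 (SE 0.62 and adjusted p = 0.496 by edgeR). For Serpinf1 it was -1.19 (SE 0.39 and adjusted p = 0.384 by edgeR) and for Thbs1 -0.99 (SE 0.43 and adjusted p = 0.49 by edgeR). Without LFD 3, Thbs1 passed in this comparison (log2 fold change -1.35, edgeR adjusted p = 0.0318), where 1.06% of all genes did. Without LFD 1 its log2 fold change was -0.57 (edgeR adjusted p = 0.817).

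The contractile genes had the lowest values of HFD against LFD, with log2 fold changes of -1.55 for Acta2 (SE 0.77), -1.52 for Tagln (SE 0.72) and -1.32 for Des (SE 0.66). Without LFD 1 they were -0.83, -1.07 and -0.34. For all 3, LFD 3 was below both HFD libraries. Exons of Tagln are overlapped over 62.4% of their length by a gene on the other strand, and its counts are uncertain because the sources used here do not give the strand setting of the counting. The same holds for Timp3 (21.3%, by Syn3) and Fbn1 (20.1%, by Gm9913). Rgs5, the other pericyte gene of the group, had a value in the opposite direction, 0.45 (SE 0.29). Timp2 was at 41.9 and 43.2 CPM in HFD, below all 3 LFD libraries, with a log2 fold change of -0.56 (SE 0.26). Pdgfra and Dcn had -0.76 (SE 0.55) and -0.77 (SE 0.44).

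Between KD and HFD, 0 of the 40 genes passed by edgeR, where 0% of all genes did. At an unadjusted p below 0.05, 6 were lower and 0 higher, against 10.6% and 12.1% of all genes. DESeq2 called 2, Mfap5 and Rgs5, where it called 8.18% of all genes, and limma-voom called 0. The fold change was below 0 for 36 of the 40, against 53.2% of all genes, with a median of -0.39 against -0.04. For 13 genes every KD library lay below both HFD libraries, against 18.2% of all genes, and for 0 every KD library lay above, against 15.7%. On library totals without TMM scaling 13 passed, against 8.36% of all genes, and with the acinar score 0 passed, against 0.0108%. The acinar share separated KD from HFD without overlap, so its part in this comparison cannot be told apart from diet. The 13 genes without overlap were Col5a1, Col4a1, Col15a1, Mfap5, Thbs1, Dcn, Lum, Dpt, Timp1, Timp3, Pdgfra, Gsn and Rgs5.

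The log2 fold change of KD against HFD was -2.28 for Mfap5 (SE 0.60) and -1.01 for Rgs5 (SE 0.27), both with an edgeR adjusted p of 0.124. Without KD 4 both passed, at edgeR adjusted p of 0.0443 and 0.0242. Without HFD 1 the adjusted p by edgeR was 0.46 for Mfap5 and 0.492 for Rgs5, and the log2 fold change of Rgs5 was -0.62. The basement membrane chain Col4a1 was at 140.3 and 140.1 CPM in HFD and at 107, 111, 74.9 and 100.3 CPM in KD, a log2 fold change of -0.51 (SE 0.18). Timp3 was at 293 and 312 CPM in HFD and at 214, 276, 152 and 217 in KD, with -0.50 (SE 0.21). For Gsn it was -0.80 (SE 0.34), for Pdgfra -0.98 (SE 0.51), for Col6a3 -0.78 (SE 0.38), for Lum -0.70 (SE 0.36), for Thbs1 -0.74 (SE 0.39) and for Dcn -0.62 (SE 0.41). Acta2 was the gene with the highest value, 0.69 (SE 0.72), which was -0.26 on library totals without TMM scaling and -1.04 with the acinar score. The 12 endothelial markers summed to 776 and 830.4 CPM in HFD and 412 to 636 CPM in KD, and 11 of the 12 were lower without overlap. Their part in the values of Rgs5 and Col4a1 was not tested. Further pericyte and smooth muscle genes had a median of -0.14 between KD and HFD, with 6 of 16 above 0, and other basement membrane genes had -0.10, with 4 of 14 above 0.

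Ratios between genes of the same library do not depend on how libraries are scaled. Pdgfra had 0.937, 1.02 and 0.670 counts per count of Pdgfrb in LFD, 0.594 and 0.515 in HFD, and 0.459, 0.433, 0.266 and 0.239 in KD. The 3 diets did not overlap in this ratio, which was chosen after its values were seen and has no test. Dcn per Col1a2 was 1.48, 1.54 and 1.01 in LFD, 1.13 and 1.12 in HFD, and 0.857, 0.801, 0.717 and 0.977 in KD. All KD libraries lay below the others, with KD 4 close to LFD 3, and this ratio has no test either. By contrast, Col1a1 per Col1a2, chains of the same collagen, overlapped across diets, at 0.518 to 0.611 in LFD, 0.479 and 0.728 in HFD, and 0.570 to 0.695 in KD. Col4a1 per Col4a2, which lie head to head in the genome, was 1.59 to 1.96 in LFD, 1.74 and 1.76 in HFD, and 1.31 to 1.62 in KD.

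**Figure D4:**
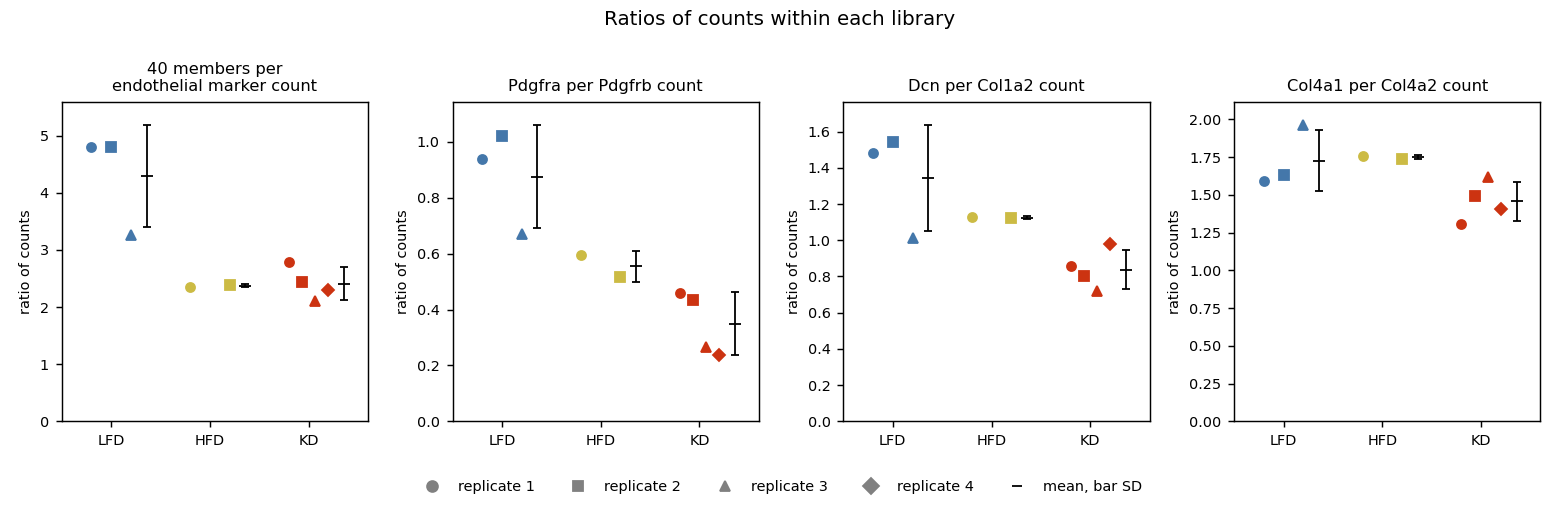
Ratios of counts within the same library (y axes, each from 0), with 1 point per library, grouped by diet, and bars for the mean ± SD. Panels show the 40 genes per count of 12 endothelial markers, then Pdgfra per Pdgfrb, Dcn per Col1a2 and Col4a1 per Col4a2. Pdgfra per Pdgfrb runs from 0.670 to 1.02 in LFD, 0.515 to 0.594 in HFD and 0.239 to 0.459 in KD.

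Within the summed counts of the 40 genes, the shares of some genes did not overlap between diets. Pdgfra was 1.27%, 1.39% and 0.817% of those counts in LFD and 0.725%, 0.699%, 0.381% and 0.405% in KD. Dcn was 4.34% to 6.02% in LFD and 2.64% to 3.93% in KD. Sparc was 4.11% to 4.37% in LFD and 5.13% to 5.79% in KD, and Eln was 0.466% to 0.564% and 0.824% to 1.66%. In all, 3 genes (Col6a3, Dcn, Pdgfra) took a lower share in KD than in LFD without overlap and 4 (Col4a2, Eln, Sparc, Pdgfrb) a higher one. Against the same total, 2.50% of all genes were lower without overlap and 22.8% higher. That total was itself a smaller share of the KD libraries, which raises the ratio of genes outside it. These percentages are therefore not a like background for shares within the total, and no conclusion is drawn from them. Between HFD and LFD 10 genes took a lower share and 7 a higher one without overlap, against 8.29% and 8.22% of all genes. The lower ones included Dcn, Bgn, Serpinf1 and Acta2, and the higher ones Col4a1, Col4a2, Sparc and Mfap5. Between KD and HFD 3 were lower and 7 higher, against 2.63% and 36.1%, percentages with the same limit as those of KD and LFD. Per count of 12 endothelial markers, the 40 genes had 4.80, 4.81 and 3.27 counts in LFD, 2.36 and 2.39 in HFD, and 2.79, 2.44, 2.10 and 2.30 in KD. Both fat-rich diets lay below LFD in that ratio and overlapped each other. The summed endothelial markers themselves were at 449.9 to 582 CPM in LFD and at 776 and 830.4 CPM in HFD, with all 12 above 0 in HFD against LFD, so the HFD ratio also holds a higher denominator.

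Other genes of connective tissue were taken from lists written with earlier results of these data known. The counts are read against the shares of all genes between KD and LFD, 3.14% called lower and 0.981% called higher, and 11.9% lower and 10.8% higher at an unadjusted p below 0.05. Of 20 other fibroblast genes 0 passed between KD and LFD by edgeR, with 10 lower and 1 higher at an unadjusted p below 0.05 and a median of -0.65. Of 16 further pericyte and smooth muscle genes 0 passed, with 3 lower and 0 higher at an unadjusted p below 0.05 and a median of -0.31. Of 12 endothelial markers 0 passed, with 0 lower and 2 higher at an unadjusted p below 0.05 and a median of 0.01.

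Genes that cut the matrix or signal within it were counted in the same way. Among other matrix proteases and inhibitors, Adamts4, Adamts1, Mmp7 and Plau fell in KD against LFD, and the median over the list of 19 was -1.14. Adamts4, a protease of cartilage-type proteoglycans, was at 6.25, 5.11 and 2.11 CPM in LFD, 0.550 and 1.01 in HFD, and 0.233, 0.178, 0 and 0.627 in KD (log2 fold change -3.93, SE 0.65 and adjusted p = 0.012 by edgeR). Its relative Adamts1 was at 66.3, 58.2 and 24.6 CPM in LFD, 16.8 and 19.7 in HFD, and 15.9, 18.9, 11.8 and 12.3 in KD (edgeR adjusted p = 0.0147). Mmp7, which is also a duct marker, fell by 2.31 on the log2 scale (SE 0.48 and adjusted p = 0.0272 by edgeR). Plau, the urokinase plasminogen activator, was at 13.1, 9.99 and 5.30 CPM in LFD, 11.2 and 9.43 in HFD, and 4.98, 4.28, 2.94 and 3.14 in KD (edgeR adjusted p = 0.0368). For all 4 every KD library lay below every LFD library. Of the 19, 10 were lower in that way and 0 higher, against 10.1% and 9.69% of all genes. Between HFD and LFD 11 were lower without overlap and 1 higher, against 14.1% and 13.4% of all genes.

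Of 14 other proteoglycans and matricellular genes tested, 4 fell. Spp1, osteopontin, which ducts also make, was at 220, 204 and 189 CPM in LFD, 113 and 82.8 in HFD, and 124, 84.9, 86.6 and 70.2 in KD (edgeR adjusted p = 0.0115). Ccn1, an integrin ligand, fell by 1.09 (SE 0.24 and adjusted p = 0.0299 by edgeR), Vcan by 0.89 (SE 0.22 and adjusted p = 0.0438 by edgeR) and Prelp by 1.01 (SE 0.25 and adjusted p = 0.0495 by edgeR), each on the log2 scale. Of 18 collagen processing enzymes tested, 1 fell: Serpinh1, the collagen chaperone HSP47, at 71.6, 82.3 and 47.5 CPM in LFD, 36.0 and 66.5 in HFD, and 35.8, 32.3, 20.8 and 27.9 in KD (log2 fold change -1.20, SE 0.25 and adjusted p = 0.0298 by edgeR). The median of that list was 0.01. Of 16 other collagen chains 1 fell, Col27a1 (log2 fold change -0.77, SE 0.18 and adjusted p = 0.0404 by edgeR). Of 14 elastic fibre genes 0 passed by edgeR, with 3 lower and 1 higher at an unadjusted p below 0.05.

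Among 19 genes of TGF-beta and PDGF signalling, the ligands Pdgfc and Pdgfd fell and the inhibitory Smad6 rose. Pdgfc, a ligand of PDGF receptor alpha, was at 6.68, 6.36 and 7.08 CPM in LFD, 4.25 and 2.93 in HFD, and 4.51, 2.90, 1.96 and 2.55 in KD (log2 fold change -1.17, SE 0.28 and adjusted p = 0.0439 by edgeR). For this gene LFD 3 was not the lowest LFD library. Pdgfd, a ligand of PDGF receptor beta, had a log2 fold change of -0.99 (SE 0.24 and adjusted p = 0.0418 by edgeR). Smad6 was at 3.80, 5.02 and 2.86 CPM in LFD, 8.85 and 8.42 in HFD, and 12.3, 6.995, 9.08 and 8.83 in KD (log2 fold change 1.25, SE 0.25 and adjusted p = 0.0243 by edgeR). Both fat-rich diets lay above LFD for it. Of 18 matrix receptors 1 fell, Sdc4, syndecan 4 (log2 fold change -0.69, SE 0.14 and adjusted p = 0.0274 by edgeR).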

How the data were processed

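Islet RNA was prepared with Trizol and chloroform, selected for poly(A) tails and built into NEBNext Ultra II Directional libraries, per the labels' protocols. Raw counts per Ensembl gene were deposited by the authors. Per the submitters' processing notes, the tools were cutadapt 1.16, STAR 2.7.9a, featureCounts 1.6.3 and DESeq2 1.40.2, with GRCm39. The sources used here give neither annotation release nor strand setting. With no batch in the labels, diet and batch cannot be told apart.

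All 9 libraries entered 1 edgeR 4.0.16 model in R 4.3.3 (filterByExpr, TMM, robust glmQLFit, glmQLFTest), tested on simulated data, with Benjamini-Hochberg adjustment over 18548 genes. Tests were two-sided. Standard errors are the fold change divided by the root of the F statistic. Covariate scores are means of log2 CPM over marker genes, with a prior count of 2. Exon lengths and overlaps come from GENCODE M21. DESeq2 1.42.0 and limma 3.58.1 (voom with quality weights) were alternatives. No libraries matched within sampling noise, with a chi-square per gene of at least 22.5.

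The members and lists were chosen with earlier results of these data known. Members described library by library were those past the threshold and then those of lowest unadjusted p, up to 12. Genes of other lists were named only if past the threshold, at most 4 a list by lowest p, and Plau was added after its values were seen. Some genes covered by this rule are left out here.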

Additional observations from a re-analysis of the deposited data

How the results depend on the processing

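Library depth limited the rarest genes, Timp1 and Mfap5, most. Of KD against LFD, the number of the 40 genes called was 1 with DESeq2 size factors, with TMM computed without acinar and hormone genes, with only the groups compared, with no filter and with a filter of 5 CPM in 3 libraries. It was 10 with the DESeq2 Wald test, 14 with limma-voom, 3 with the acinar score and 0 with the lymphocyte score. Leaving out each library in turn gave 0 to 13 calls, with medians from -1.03 to -0.51. Library totals without TMM scaling, added after seeing the data, gave 25 calls, with a median of -1.35 over the genes and -0.59 over all genes. With no filter Thbs1 was lost (edgeR adjusted p = 0.103) and Lum passed. Of HFD against LFD the count was 0 to 1 when each library was left out, and 0 with every other setting except the replicate block. Library totals without TMM scaling moved the median of all genes to 0.20 there. Of KD against HFD the count was 2 with the DESeq2 Wald test, 1 with no filter and 13 on library totals without TMM scaling, where the median over all genes was -0.81. It was 0 to 2 when each library was left out. The cause of these differences was not tested.

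Over all genes tested, the deviations of same-numbered libraries correlated between -0.02 and 0.22. Among the 40 genes, replicate 1 was the highest library for 36 in LFD and 31 in KD, against 28.6% and 31.2% of all genes. Replicate 3 was the lowest for 38 in LFD and 34 in KD, against 40.5% and 25.4% of all genes. Neither pattern can show whether the replicate numbers mark pairs, which the labels do not say. With a replicate block 26 genes were called in KD against LFD, 11 in HFD against LFD and 4 in KD against HFD. That setting called 10.8%, 2.13% and 12.5% of all genes, in the same order. Genes under the filter of 5 CPM, Mfap5 among them, have no value in that setting.

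With the lymphocyte score as a covariate, these log2 fold changes of KD against LFD turned above 0: Col3a1 0.32, Col5a2 1.10, Col6a2 1.12, Col6a3 1.13, Mfap5 3.42, Thbs1 0.67, Dcn 0.97, Lum 0.76, Dpt 1.82, Serpinf1 1.20, Pdgfra 1.29, Col1a1 0.86, Col1a2 0.62, Col4a1 0.39, Col4a2 1.13, Fn1 1.37, Sparc 1.02, Bgn 0.45, Timp3 0.31, Pdgfrb 1.55, Acta2 2.14, Tagln 2.003, Des 0.94, Vim 1.94 and Gsn 1.11. Of HFD against LFD they were Thbs1 0.98, Serpinf1 0.58, Pdgfra 1.75, Dcn 1.19, Acta2 0.93, Tagln 1.159, Timp2 0.36 and Des 0.69. Standard errors were wide, in KD against LFD 0.59 for Col4a2, 1.02 for Thbs1, 1.90 for Tagln, 2.12 for Des and 2.23 for Acta2. By edgeR 0% of all genes passed in either comparison with this score. All 12 lymphocyte markers were lower without overlap in KD and in HFD than in LFD, so the score cannot be told apart from diet in either. Col4a2 in KD against LFD ran from -0.32 without LFD 3 to 0.037 without LFD 1, and was 0.018 without KD 3. On library totals without TMM scaling Eln was -0.21 in KD against LFD and Acta2 -0.26 in KD against HFD, and with the acinar score they were -0.053 and -1.04. Of 48 fold changes under 20 alternatives, 816 values kept direction and call, 93 newly passed, 9 no longer passed and 39 reversed.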
